A study of Mus musculus with 27 samples.

Results

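The members are 10 genes of the carriers that move bile acids and other organic anions through hepatocytes, the parenchymal cells of the liver. They were chosen as the rows of the count table whose Ensembl identifiers map to the symbols Slc10a1, Slco1a1, Slco1a4, Slco1b2, Slco2b1, Abcb4, Abcb11, Abcc2, Abcc3 and Abcc4. All 10 of these, among 55414 genes in the table, passed the low-count filter (a mean count of 10 or more over the libraries), which kept 14114 genes in all. RNA was sequenced from whole liver homogenate of 27 female Balb/c mice, 8 weeks old, in 8 groups.

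The 4 groups without fibrosis received olive oil by intraperitoneal injection. In the control group, 4 mice also received PBS through the tail vein. The 4MU group of 3 mice was gavaged daily with 4-methylumbelliferone, an inhibitor of hyaluronan synthesis. A further 3 mice received siHAS2-LNP, lipid nanoparticles carrying siRNA against the hyaluronan synthase HAS2, and 3 received siLuc-LNP, the same type of particle with siRNA against luciferase, which has no target in mice. The other 4 groups received carbon tetrachloride (CCl4), a hepatotoxin that is activated mainly in pericentral hepatocytes, for 2 weeks to induce fibrosis: CCl4 alone (2 mice), or with siLuc-LNP, siHAS2-LNP or 4MU (4 mice each), named CCl4 + siLuc-LNP and so on. Both 4MU and the nanoparticles were begun 2 days before the first CCl4 injection, and the siRNA doses were 1 mg/kg and then 0.5 mg/kg. Library totals ranged from 7044386 counts, in CCl4 + siHAS2-LNP mouse 4, to 29425937 counts. The CCl4 group holds only 2 mice, and every comparison of a treated fibrotic group with CCl4 rests on the same 2 libraries. Unless another fit is named, p-values came from 1 fit of all 27 mice. In it the 8 groups shared 1 estimate of the spread between mice, so that of the 2 CCl4 mice was not estimated by itself.

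Hepatocytes take up bile acids from the sinusoidal blood across the basolateral membrane and secrete them across the canalicular membrane into bile. Slc10a1 (Ntcp) carries conjugated bile acids together with sodium, whereas the organic anion transporting polypeptides encoded by Slco genes take up bile acids, bilirubin, steroid conjugates and many drugs without sodium. At the canaliculus, the ATP-driven pumps Abcb11 (Bsep), Abcb4 (Mdr2) and Abcc2 (Mrp2) export bile salts, phosphatidylcholine and conjugated anions, respectively. Abcc3 (Mrp3) and Abcc4 (Mrp4) pump conjugates back into the blood. In cholestatic liver, lower uptake and higher basolateral efflux are a well-known response of this system.

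In mice that received CCl4 alone, mRNA of most uptake carriers was lower than in control and that of Abcc2 was higher. In CCl4 against control, 7 of the 10 members passed the threshold of an adjusted p of 0.05 in edgeR's quasi-likelihood test, and 34.0% of all genes tested did so. Of these members, 6 fell, against 16.1% of all genes, and 1 rose, against 18.0% of all genes. The median log2 fold change of the members was -0.97, beside -0.02 over all genes tested. The 4 uptake carriers Slc10a1, Slco1b2, Slco2b1 and Slco1a4 fell, as did Abcb11 and Abcc3, and Abcc2 rose. Without CCl4 mouse 1 or without CCl4 mouse 2, the number past the threshold was 4.

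**Figure D1:**
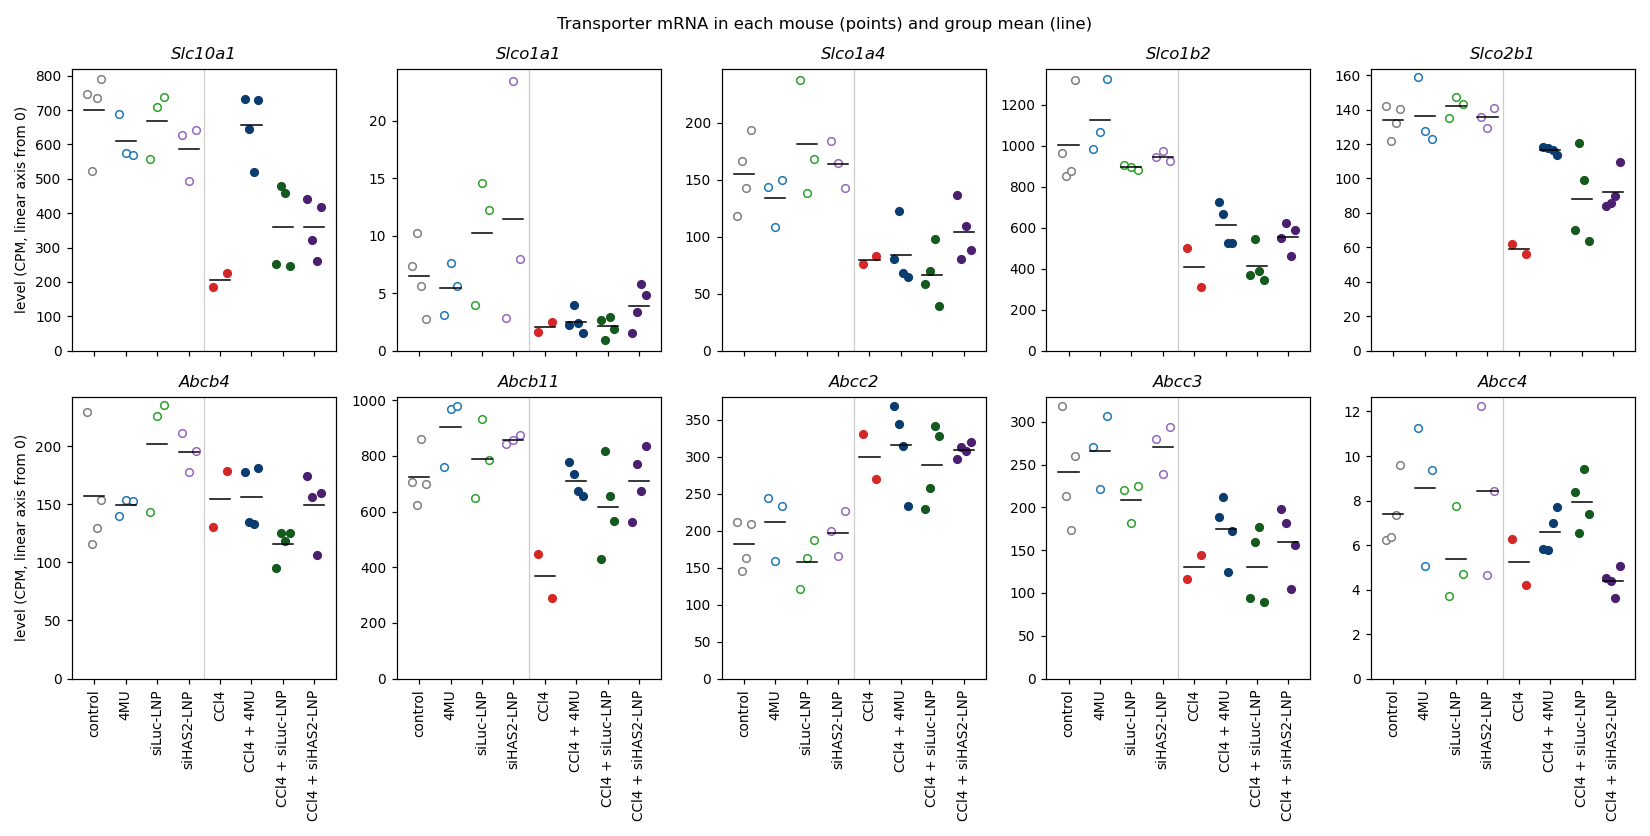
Level of each transporter in each of the 27 mice in CPM (counts relative to the scaled library total; linear axes starting at 0), with open points for mice without CCl4, filled points for mice with CCl4 and a line at each group mean. Slco1b2 and Slco2b1 were lower in all 14 CCl4 mice than in any of the 13 others. For Slco2b1 this held narrowly and only on the scaled totals. Slc10a1 in CCl4 + 4MU lay in the range of the groups without CCl4.

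Within the 4MU arm (CCl4 + 4MU against 4MU), 2 members passed the threshold, with 23.7% of all genes. In the siLuc-LNP arm the number was 8, with 24.2% of all genes. In the siHAS2-LNP arm it was 6, with 12.8% of all genes. Averaged over the 4 arms, 9 members passed, 8 lower and Abcc2 higher, where 51.9% of all genes did so. Slco1b2 and Abcc2 were the members past the threshold in each of the 4 arms. Without 4MU mouse 2 or 3, or without CCl4 + 4MU mouse 1 or 3, the number in the 4MU arm was 1. In the siHAS2-LNP arm it was 1 to 3 without any of siHAS2-LNP mice 1 to 3 or CCl4 + siHAS2-LNP mouse 2 or 3.

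**Figure D2:**
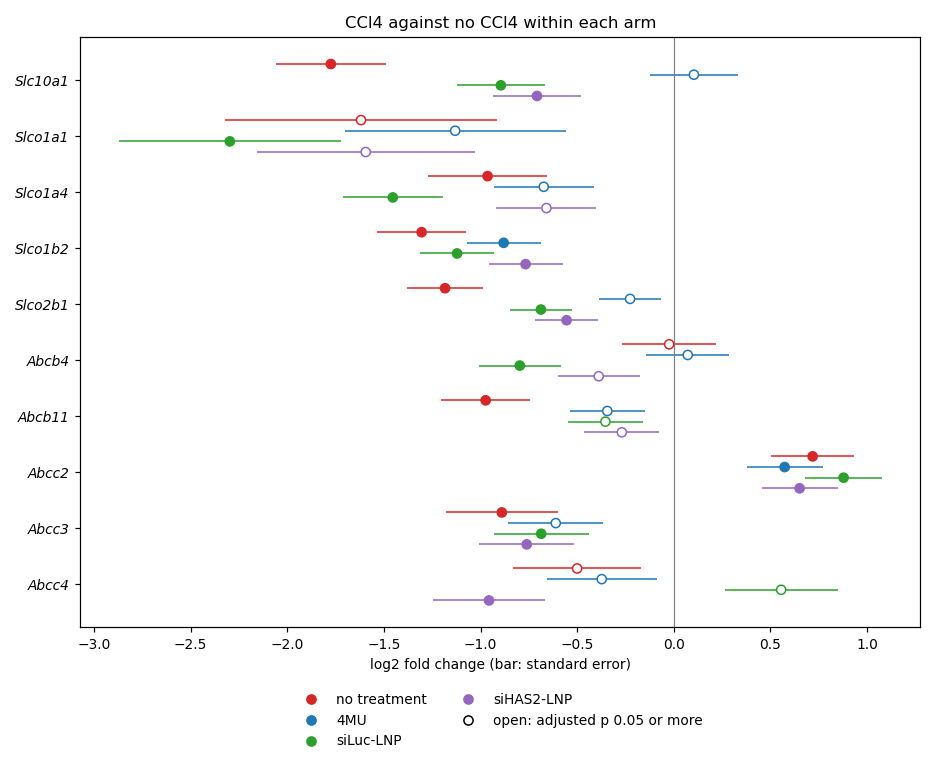
Log2 fold change of CCl4 against no CCl4 within each arm, with bars for the standard error and filled points for an adjusted p under 0.05. Abcc2 lies to the right of 0 in all 4 arms, Slco1b2 to the left in all 4, and the 4MU value of Slc10a1 is 0.10 where the value without treatment is -1.77.

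Among fibrotic mice, the same 3 members were higher than in CCl4 in both the CCl4 + 4MU and the CCl4 + siHAS2-LNP group. In CCl4 + 4MU against CCl4, Slc10a1, Slco2b1 and Abcb11 rose, where 18.3% of all genes passed the threshold, 8.28% higher. In CCl4 + siHAS2-LNP against CCl4 the members past the threshold were also Slc10a1, Slco2b1 and Abcb11, all higher, where 14.4% of all genes passed, 7.11% higher. In CCl4 + siLuc-LNP against CCl4, 0 members passed by edgeR, where 0.248% of all genes did so. At an unadjusted p under 0.05, 3 members passed there, Slc10a1, Slco2b1 and Abcb11, with 2001 of all 14114 genes. DESeq2 called 1 member, Abcb11, with an adjusted p of 0.0399, and over all genes called 134 higher and 161 lower. Without CCl4 + siLuc-LNP mouse 4, all 3 passed by edgeR (adjusted p = 0.0139 to 0.0423). The 3 comparisons share the 2 CCl4 mice. Without CCl4 mouse 2, the number past the threshold was 1 for CCl4 + 4MU and 0 for CCl4 + siHAS2-LNP, and without CCl4 + siHAS2-LNP mouse 4 it was 1 for the latter. Without CCl4 mouse 1 it was 2 for CCl4 + siHAS2-LNP, since Slc10a1 and Slco2b1 no longer passed and Slco1b2 did (log2 difference 0.84, adjusted p = 0.0451).

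**Figure D3:**
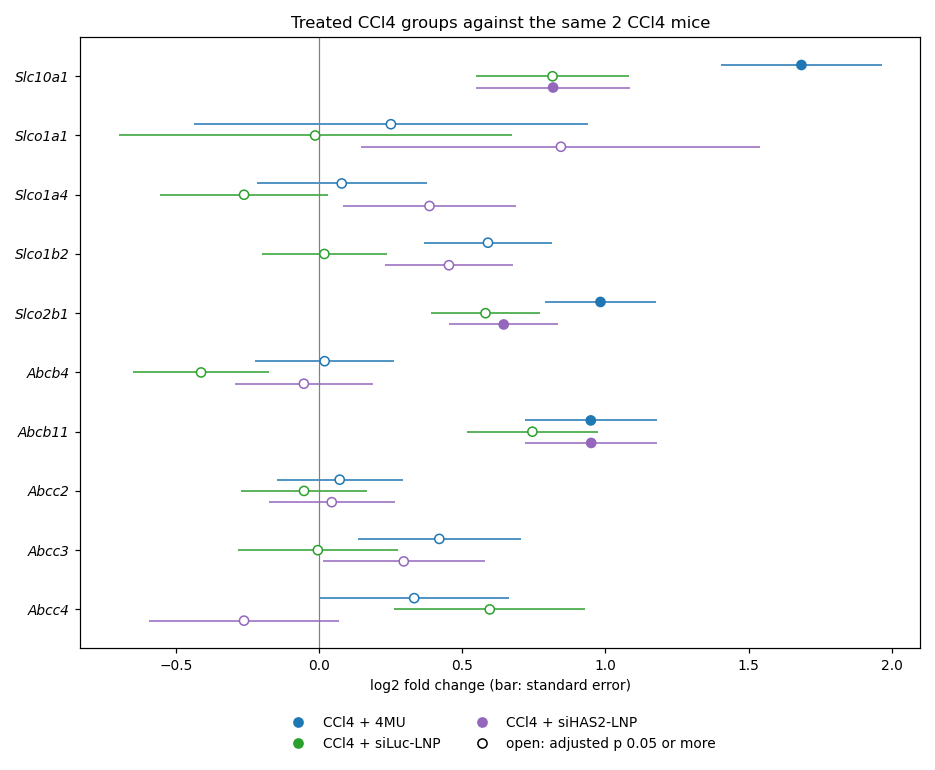
Log2 fold change of the 3 treated CCl4 groups against the same 2 CCl4 mice, with bars for the standard error and filled points for an adjusted p under 0.05. Slc10a1, Slco2b1 and Abcb11 lie to the right of 0 in all 3 groups, with the highest value, 1.68, for Slc10a1 in CCl4 + 4MU.

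A direct comparison of CCl4 + siHAS2-LNP with CCl4 + siLuc-LNP, which separates HAS2 siRNA from the particle, gave 0 members past the threshold by edgeR and 0 by DESeq2, where 1.09% of all genes passed by edgeR. At an unadjusted p under 0.05 there were 3 members, Abcc4, Slco1a4 and Slco1b2, with 2349 of all 14114 genes. CCl4 + 4MU against CCl4 + siHAS2-LNP gave 1 member, Slc10a1, where 1.22% of all genes passed. In mice without CCl4, 0 members passed by edgeR or DESeq2 for 4MU against control (0.00709% of all genes), siLuc-LNP against control (0.213%) or siHAS2-LNP against siLuc-LNP (0.0425%). At an unadjusted p under 0.05 the numbers were 0, 0 and 1, with 966, 960 and 1262 of all 14114 genes. The test of whether the CCl4 effect differed between arms gave 2 members for 4MU, where 5.67% of all genes passed. For siLuc-LNP (0.00709% of all genes) and for siHAS2 against siLuc (0.0354% of all genes) it gave 0 by edgeR and 0 by DESeq2. At an unadjusted p under 0.05 by edgeR there were 4 and 2 members, with 1411 and 1612 of all 14114 genes.

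The levels of different genes were compared per kilobase of exon, as CPM per kilobase of the union of annotated exons. In the 4 control mice, Slc10a1 was at 209 ± 35.9 (SD), Slco1b2 at 156 ± 33.8 and Abcb11 at 130.1 ± 18.0 CPM per kilobase. These 3 stood above the others. The range of Slco1b2 overlapped with that of Slc10a1 and with that of Abcb11, whereas the ranges of Slc10a1 and Abcb11 did not overlap. Abcc3 followed at 40.4 ± 10.4. Slco2b1 (21.5 ± 1.501), Abcc2 (21.0 ± 3.79), Slco1a4 (18.2 ± 3.79) and Abcb4 (11.6 ± 3.76) had mean levels below that of Abcc3, and each overlapped with its neighbour in this order. Slco1a1 (1.23 ± 0.595) and Abcc4 (0.855 ± 0.181) were the least abundant, and their ranges overlapped. Slco1a1, a carrier that male mouse liver is known to express more than female liver, had 24 to 497 counts per library, and Abcc4 had 38 to 303 counts.

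The windows just upstream of the transcription starts are shown for Slc10a1, Abcb11 and Abcc2. Slc10a1 and Abcb11 were lower in CCl4 than in control and higher in CCl4 + 4MU than in CCl4. Abcc2 was higher in CCl4 than in control. Each window ends just before the start of the Ensembl canonical transcript, read 5′ to 3′ on the strand of the gene from GRCm39, the build used by the authors. Slc10a1 is at chr12:81014854-81015103 (minus strand), Abcb11 at chr2:69173316-69173565 (minus strand) and Abcc2 at chr19:43770381-43770630 (plus strand). Capitals mark motif matches.
Slc10a1: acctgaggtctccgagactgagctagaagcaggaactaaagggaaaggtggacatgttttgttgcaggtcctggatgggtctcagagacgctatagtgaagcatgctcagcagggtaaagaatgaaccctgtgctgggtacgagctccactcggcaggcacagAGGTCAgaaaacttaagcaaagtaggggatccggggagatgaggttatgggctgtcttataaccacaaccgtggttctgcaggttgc
Abcb11: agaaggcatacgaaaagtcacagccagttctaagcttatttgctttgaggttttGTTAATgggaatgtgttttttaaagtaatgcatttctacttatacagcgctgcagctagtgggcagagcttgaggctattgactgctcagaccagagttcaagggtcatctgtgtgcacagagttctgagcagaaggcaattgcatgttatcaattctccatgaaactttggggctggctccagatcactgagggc
Abcc2: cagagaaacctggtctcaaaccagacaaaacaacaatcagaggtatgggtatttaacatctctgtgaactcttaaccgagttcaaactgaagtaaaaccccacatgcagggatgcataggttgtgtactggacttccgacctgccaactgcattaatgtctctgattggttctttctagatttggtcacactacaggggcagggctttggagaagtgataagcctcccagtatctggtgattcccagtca

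Short motifs, 4 in all, were searched on both strands of the windows of all 10 members and of 21770 promoters of the same length in all. The nuclear receptor half-site AGGTCA was in 3 members, Slc10a1 (87 to 82 bases before the start), Slco1a1 (132 to 127 on the opposite strand and 22 to 17) and Slco1b2 (16 to 11, opposite strand), and in 13.1% of all promoters. The HNF1 half-site GTTAAT was in Abcb11, 196 to 191 bases before the start, and in 6.28% of all promoters. Neither the antioxidant response core TGACNNNGC (9.69% of all promoters) nor the E-box CACGTG (6.26%) was in these windows of the members. Matches of AGGTCA and of the antioxidant core can overlap, since both may hold TGAC. No match of these letters was in the Abcc2 window. A match in this window is a description of the sequence and not a binding site.

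Slc10a1 (ENSMUSG00000021135, chromosome 12, 80996372 to 81015479, minus strand) encodes the main uptake carrier of conjugated bile acids. It was at 746, 523, 736 and 791 CPM in the control mice and at 184 and 225 CPM in the CCl4 mice. The 4 CCl4 + 4MU mice were at 732, 644, 520 and 731 CPM. These 4 lay wholly above both CCl4 mice, and 3 of them lay between the lowest and the highest control mouse. The CCl4 + siLuc-LNP mice were at 253, 480, 458 and 247 CPM and the CCl4 + siHAS2-LNP mice at 442, 321, 259 and 418 CPM. All 8 of these mice were above both CCl4 mice and below every control mouse. In the 9 treated mice without CCl4 the level was 494 to 739 CPM.

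Against control, Slc10a1 fell by 1.77 (standard error, SE, 0.28; adjusted p = 3.56e-05) on the log2 scale in CCl4 mice, to 0.292 of the control level. It fell by 0.90 (SE 0.23, adjusted p = 0.00537) in the siLuc-LNP arm and by 0.71 (SE 0.23, adjusted p = 0.0401) in the siHAS2-LNP arm. In the 4MU arm the log2 difference was 0.10 (SE 0.23, adjusted p = 0.783). The CCl4 effect differed between the 4MU arm and the untreated arm by 1.88 on the log2 scale (SE 0.36, adjusted p = 0.0115). For siLuc-LNP that difference was 0.88 (SE 0.35, adjusted p = 0.404). The fall in CCl4 mice passed the threshold with any 1 of the 6 mice left out. Without siHAS2-LNP mouse 1 or 3 or CCl4 + siHAS2-LNP mouse 2 or 3, the value of the siHAS2-LNP arm was -0.66 to -0.58 and did not pass (adjusted p = 0.0972 to 0.136). In a fit of only the compared groups, the siLuc-LNP arm gave an adjusted p of 0.0744. The difference between arms for 4MU was 2.01 (adjusted p = 0.0643) without CCl4 mouse 2.

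Among fibrotic mice, Slc10a1 was higher in CCl4 + 4MU than in CCl4 by 1.68 (SE 0.28, adjusted p = 7.49e-04) on the log2 scale, and this passed with any 1 of the 6 mice left out. CCl4 + siHAS2-LNP was higher than CCl4 by 0.82 (SE 0.27, adjusted p = 0.0426), and CCl4 + siLuc-LNP differed from CCl4 by 0.82 as well (SE 0.27, adjusted p = 0.159). Between the 2 siRNA groups the log2 difference was 0.00 (SE 0.21, adjusted p = 0.998), with 2 standard errors reaching from -0.42 to 0.43. CCl4 + 4MU exceeded CCl4 + siHAS2-LNP by 0.87 (SE 0.21, adjusted p = 0.0441), and the mice of these groups did not overlap. The value for CCl4 + siHAS2-LNP against CCl4 was 0.67 to 0.94 (adjusted p = 0.0857 to 0.204) without CCl4 mouse 1 or 2 or CCl4 + siHAS2-LNP mouse 1 or 4. The value for CCl4 + 4MU against CCl4 + siHAS2-LNP was 0.74 to 0.94 (adjusted p = 0.0532 to 0.189) without CCl4 + 4MU mouse 1, 2 or 4 or CCl4 + siHAS2-LNP mouse 2, 3 or 4. Slc10a1 overlaps Srsf5 on the opposite strand, which had a mean of 4986 counts. The strand setting of the counting is not stated, so reads of the overlap cannot be assigned with certainty.

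Slco1b2 (ENSMUSG00000030236, chromosome 6, 141575179 to 141633546, plus strand) encodes Oatp1b2, a liver-specific carrier of bilirubin, bile acids and drugs such as statins. Its levels were 966, 850.3, 875 and 1321 CPM in control and 502 and 309.9 CPM in CCl4. The CCl4 + 4MU mice were at 726, 669, 523 and 526 CPM, the CCl4 + siLuc-LNP mice at 369, 543, 386 and 346 CPM and the CCl4 + siHAS2-LNP mice at 551, 622, 464 and 586 CPM. All 14 CCl4 mice (310 to 726 CPM, median 525) lay below all 13 others (850.3 to 1325 CPM, median 942). On the scaled totals, 4.58% of all genes tested separated these sets of mice without overlap in either direction. Among the members, Slco1b2 and Slco2b1 did so.

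The fall of Slco1b2 was 1.31 (SE 0.23, adjusted p = 1.29e-04) on the log2 scale in CCl4 mice and 1.12 (SE 0.19, adjusted p = 1.33e-04) in the siLuc-LNP arm. In the 4MU arm its level fell by 0.88 (SE 0.19, adjusted p = 0.00157) and in the siHAS2-LNP arm by 0.77 (SE 0.19, adjusted p = 0.00891). With any 1 mouse left out, Slco1b2 remained past the threshold in all 4 arms. Over the 4 arms the value was -1.02 (SE 0.10, adjusted p = 8.66e-09). In CCl4 + 4MU against CCl4, the log2 difference was 0.59 (SE 0.22, adjusted p = 0.0668). It passed by DESeq2 (adjusted p = 0.046) and, by edgeR, without CCl4 mouse 1 (log2 difference 0.97, adjusted p = 0.0207). Without CCl4 mouse 2 it was 0.25 (adjusted p = 0.640).

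Slco2b1 (ENSMUSG00000030737, chromosome 7, 99306783 to 99360547, minus strand) encodes Oatp2b1, a carrier of steroid sulfates and drugs. It was at 142, 122, 132 and 141 CPM in control and at 61.8 and 56.2 CPM in CCl4. The CCl4 + 4MU mice were at 118, 118, 117 and 114 CPM, the CCl4 + siLuc-LNP mice at 69.8, 121, 99.2 and 63.4 CPM and the CCl4 + siHAS2-LNP mice at 83.9, 85.5, 90.1 and 109.8 CPM. On the scaled totals, the highest of the 14 CCl4 mice (120.6 CPM) was below the lowest of the 13 others (121.5 CPM). This narrow gap depended on the scaling. By unscaled totals the sets overlapped, as CCl4 + siLuc-LNP mouse 2 had 3126 of 25641808 counts and control mouse 2 had 2059 of 18421673. All 12 treated fibrotic mice lay above both CCl4 mice.

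Slco2b1 fell by 1.18 (SE 0.19, adjusted p = 5.14e-05) on the log2 scale in CCl4 mice, and did so with any 1 mouse left out. It fell by 0.69 (SE 0.16, adjusted p = 0.00292) in the siLuc-LNP arm, where a fit of only the compared groups gave an adjusted p of 0.0957. In the siHAS2-LNP arm it fell by 0.55 (SE 0.16, adjusted p = 0.0241). This last value was -0.59 to -0.51 (adjusted p = 0.0531 to 0.0832) without any of siHAS2-LNP mice 1 to 3 or CCl4 + siHAS2-LNP mice 1 to 3. In the 4MU arm the log2 difference was -0.23 (SE 0.16, adjusted p = 0.329), although the 2 groups did not overlap on the scaled totals. By unscaled totals they overlapped, with 2430 of 20775142 counts in 4MU mouse 3 and 3158 of 26574405 in CCl4 + 4MU mouse 3. The CCl4 effect differed between the 4MU arm and the untreated arm by 0.96 (SE 0.25, adjusted p = 0.0319). Without control mouse 1, 4MU mouse 2 or 3, CCl4 mouse 2 or CCl4 + 4MU mouse 1 or 4, this was 0.87 to 0.97 (adjusted p = 0.0537 to 0.174).

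Slco2b1 was higher in CCl4 + 4MU than in CCl4 by 0.98 (SE 0.19, adjusted p = 0.00181), and without CCl4 mouse 2 by 0.89 (adjusted p = 0.0690). The corresponding value was 0.64 (SE 0.19, adjusted p = 0.0252) for CCl4 + siHAS2-LNP and 0.58 (SE 0.19, adjusted p = 0.153) for CCl4 + siLuc-LNP. Between the 2 siRNA groups it was 0.06 (SE 0.15, adjusted p = 0.893), with 2 standard errors reaching from -0.24 to 0.36. For CCl4 + siHAS2-LNP the value was 0.55 to 0.71 (adjusted p = 0.0584 to 0.264) without CCl4 mouse 1 or 2 or CCl4 + siHAS2-LNP mouse 4.

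Slco1a4 (ENSMUSG00000030237, chromosome 6, 141751165 to 141802036, minus strand) encodes Oatp1a4, a carrier of bile acids and cardiac glycosides such as digoxin. Its levels were 118, 166, 143 and 193 CPM in control and 75.9 and 82.9 CPM in CCl4, and of the 14 CCl4 mice 11 lay below all 13 others. It fell by 0.96 (SE 0.31, adjusted p = 0.0184) on the log2 scale in CCl4 mice and by 1.45 (SE 0.26, adjusted p = 2.20e-04) in the siLuc-LNP arm. The fall in CCl4 mice was -1.01 to -0.89 (adjusted p = 0.107) without CCl4 mouse 1 or 2. In the 4MU and siHAS2-LNP arms the log2 differences were -0.67 (SE 0.26, adjusted p = 0.0606) and -0.66 (SE 0.26, adjusted p = 0.0950). The value of the 4MU arm passed by DESeq2 (adjusted p = 0.0422), without the low-count filter (0.0190) and without CCl4 + 4MU mouse 2 (log2 difference -0.93, adjusted p = 0.0120). That of the siHAS2-LNP arm passed without the filter (adjusted p = 0.0189) and in a fit of only the compared groups (0.0234). Against CCl4, the treated groups differed by -0.26 to 0.39 and 0 of the 3 differences passed the threshold by edgeR, 0 by DESeq2 and 0 at an unadjusted p under 0.05.

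Slco1a1 (ENSMUSG00000041698, chromosome 6, 141853007 to 141892690, minus strand) encodes Oatp1a1, a carrier of bile acids and steroid conjugates. It was at 7.38, 10.3, 5.64 and 2.78 CPM in control and at 1.65 and 2.52 CPM in CCl4, and siHAS2-LNP mouse 2 had the highest value of all mice, 23.4 CPM. The log2 fold change was -2.297 (SE 0.58, adjusted p = 0.00496) on the log2 scale in the siLuc-LNP arm and held with any 1 mouse left out. In CCl4 against control the log2 difference was -1.62 (SE 0.70, adjusted p = 0.0769). At these low counts the call depended on the fit, as the adjusted p was 7.10e-04 without the low-count filter, 0.0266 in a fit of only the compared groups and 0.0470 without control mouse 4. The log2 differences in the 4MU and siHAS2-LNP arms were -1.13 (SE 0.57, adjusted p = 0.156) and -1.59 (SE 0.56, adjusted p = 0.0633). Without the low-count filter both passed (adjusted p = 0.00743 and 2.33e-05), and the 4MU arm also passed in a fit of only the compared groups (adjusted p = 0.0457). The value of the siHAS2-LNP arm was -2.06 (adjusted p = 0.0196) without siHAS2-LNP mouse 1 and -0.51 (adjusted p = 0.671) without siHAS2-LNP mouse 2. Slco1a1, Slco1a4 and Slco1b2 are neighbours on chromosome 6 and close in sequence. Reads that map to several places were not counted, so the levels of these 3 genes are uncertain to that extent.

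Abcb11 (ENSMUSG00000027048, chromosome 2, 69068544 to 69173315, minus strand) encodes the bile salt export pump, the step that limits bile salt secretion. It was at 707, 623, 862 and 701 CPM in control and at 448 and 288 CPM in CCl4. The CCl4 + 4MU mice were at 779, 734, 673 and 657 CPM, and all 4 lay within the range of the control mice and above both CCl4 mice. The CCl4 + siLuc-LNP mice were at 431, 817, 655 and 565 CPM and the CCl4 + siHAS2-LNP mice at 563, 772, 674 and 837 CPM. Of these 8 mice, CCl4 + siLuc-LNP mouse 1 was the only 1 that did not exceed both CCl4 mice. Mice treated without CCl4 were at 649 to 979 CPM.

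Abcb11 fell by 0.97 (SE 0.23, adjusted p = 0.00225) on the log2 scale in CCl4 mice, and by 0.67 (adjusted p = 0.112) without CCl4 mouse 2. In the 4MU, siLuc-LNP and siHAS2-LNP arms the log2 differences were -0.34, -0.35 and -0.27, with standard errors of 0.19 and adjusted p from 0.189 to 0.400. Both CCl4 + 4MU and CCl4 + siHAS2-LNP were higher than CCl4 by 0.95 (SE 0.23), with adjusted p of 0.00734 and 0.00903. Without CCl4 mouse 2, these values were both 0.64 (adjusted p = 0.220 and 0.255). CCl4 + siLuc-LNP differed from CCl4 by 0.74 (SE 0.23, adjusted p = 0.133), by 1.10 (adjusted p = 0.0605) without CCl4 mouse 1 and by 0.45 (adjusted p = 0.769) without CCl4 mouse 2. The difference between the 2 siRNA groups was 0.21 (SE 0.18, adjusted p = 0.625).

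Abcc2 (ENSMUSG00000025194, chromosome 19, 43770631 to 43829179, plus strand) encodes Mrp2, the canalicular pump for bilirubin glucuronides and glutathione conjugates. It was at 211, 146, 163 and 209.7 CPM in control and at 331 and 269.8 CPM in CCl4. The CCl4 + 4MU mice were at 369, 344, 315 and 234 CPM, the CCl4 + siLuc-LNP mice at 229.9, 258, 342 and 328 CPM and the CCl4 + siHAS2-LNP mice at 297, 313, 308 and 319.9 CPM. Of the 14 CCl4 mice, 12 lay above all 13 others, whose highest value was 244 CPM.

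Abcc2 rose by 0.72 (SE 0.22, adjusted p = 0.0122) on the log2 scale in CCl4 mice, 1.65-fold. It rose by 0.57 (SE 0.20, adjusted p = 0.0355) in the 4MU arm, by 0.88 (SE 0.20, adjusted p = 0.00218) in the siLuc-LNP arm and by 0.65 (SE 0.20, adjusted p = 0.0295) in the siHAS2-LNP arm. Over the 4 arms the rise was 0.71 (SE 0.10, adjusted p = 2.76e-06), and it passed the threshold with any 1 of the 27 mice left out. The rise in the siLuc-LNP arm also passed with any 1 mouse left out. In CCl4 against control it was 0.58 (adjusted p = 0.109) without CCl4 mouse 1. In the 4MU arm it was 0.40 to 0.65 (adjusted p = 0.0565 to 0.204) without 4MU mouse 2 or 3 or CCl4 + 4MU mouse 1, 2 or 3. In the siHAS2-LNP arm it was 0.54 to 0.66 (adjusted p = 0.0535 to 0.154) without siHAS2-LNP mouse 1 or 2 or CCl4 + siHAS2-LNP mouse 2 or 3. The treated fibrotic groups differed from CCl4 by 0.07, -0.05 and 0.04 for 4MU, siLuc-LNP and siHAS2-LNP, each with a standard error of 0.22 and an adjusted p from 0.847 to 0.946.

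Abcb4 (ENSMUSG00000042476, chromosome 5, 8943604 to 9011999, plus strand) encodes the floppase that delivers phosphatidylcholine to bile. Its levels were 229.7, 116, 129 and 154 CPM in control and 131 and 178 CPM in CCl4, and these groups overlapped. The log2 difference was -0.02 (SE 0.24, adjusted p = 0.951) in CCl4 against control, and it fell by 0.80 (SE 0.21, adjusted p = 0.00757) in the siLuc-LNP arm, with any 1 mouse left out as well. The CCl4 effect differed between the siLuc-LNP arm and the untreated arm by -0.77 (SE 0.32, adjusted p = 0.422). Over the 4 arms the value was -0.28 (SE 0.11, adjusted p = 0.0339). Leaving out any of control mouse 1, 4MU mouse 2, CCl4 mouse 1, CCl4 + 4MU mouse 3, siHAS2-LNP mouse 1, CCl4 + siHAS2-LNP mouse 3, siLuc-LNP mouse 2 or 3 or CCl4 + siLuc-LNP mouse 1 gave -0.28 to -0.22 (adjusted p = 0.0502 to 0.127). Abcb4 overlaps Crot on the opposite strand, which had a mean of 12681 counts.

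Abcc3 (ENSMUSG00000020865, chromosome 11, 94233874 to 94283823, minus strand) encodes Mrp3, which exports glucuronides to the blood. It was at 318, 214, 173 and 260.3 CPM in control and at 116 and 144 CPM in CCl4, and of the 14 CCl4 mice 9 lay below all 13 others. Abcc3 fell by 0.89 (SE 0.29, adjusted p = 0.0208) on the log2 scale in CCl4 mice, by 0.69 (SE 0.25, adjusted p = 0.0430) in the siLuc-LNP arm and by 0.76 (SE 0.25, adjusted p = 0.0411) in the siHAS2-LNP arm. In the 4MU arm the difference was -0.61 (SE 0.25, adjusted p = 0.0718), and it passed without the low-count filter (adjusted p = 0.0449), in a fit of only the compared groups (0.0430) and without CCl4 + 4MU mouse 2 (log2 difference -0.73, adjusted p = 0.0453). In a fit of only its own 2 groups, the siLuc-LNP arm did not pass (adjusted p = 0.134). Each of these calls depended on single mice. Without control mouse 1 or CCl4 mouse 1 or 2, the first value was -1.03 to -0.72 (adjusted p = 0.0595 to 0.154). Without any of siLuc-LNP mice 1 to 3 or CCl4 + siLuc-LNP mouse 1 or 4, the value of that arm was -0.78 to -0.53 (adjusted p = 0.0511 to 0.145). Without any of siHAS2-LNP mice 1 to 3 or CCl4 + siHAS2-LNP mice 2 to 4, the value of that arm was -0.84 to -0.60 (adjusted p = 0.0518 to 0.138).

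Abcc4 (ENSMUSG00000032849, chromosome 14, 118720103 to 118943924, minus strand) encodes Mrp4, which exports bile acids together with glutathione, and cyclic nucleotides. It was at 6.21, 6.38, 7.35 and 9.61 CPM in control and at 6.28 and 4.22 CPM in CCl4, and these groups overlapped. The CCl4 + siLuc-LNP mice were at 8.38, 6.52, 9.43 and 7.38 CPM and the CCl4 + siHAS2-LNP mice at 4.54, 4.39, 3.61 and 5.07 CPM, with no overlap between these 2 groups. The log2 difference between them was -0.86 (SE 0.27, adjusted p = 0.114). Abcc4 fell by 0.96 (SE 0.29, adjusted p = 0.0303) in the siHAS2-LNP arm, with a difference of 0.56 (SE 0.29, adjusted p = 0.170) in the siLuc-LNP arm. The test of the difference between these 2 arms gave -1.51 (SE 0.41, adjusted p = 0.179). Without the low-count filter, the last value had an adjusted p of 0.00462 and the difference between the 2 fibrotic siRNA groups 0.0159. The fall in the siHAS2-LNP arm was -0.96 to -0.58 (adjusted p = 0.0634 to 0.260) without siHAS2-LNP mouse 1 or 3 or CCl4 + siHAS2-LNP mouse 2 or 3, and siHAS2-LNP mouse 1 held the highest Abcc4 value of all mice, 12.2 CPM.

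Abcc2 and Abcc3, the canalicular and the basolateral pump for conjugates, changed in opposite directions with CCl4. The log2 ratio of their counts, which does not depend on the scaling of libraries, was -0.86 to -0.09 (median -0.39) in the 13 mice without CCl4. In the 14 CCl4 mice it was 0.44 to 1.88 (median 0.96). The 2 sets of mice did not overlap. Means per group were -0.39 in control, 1.21 in CCl4, 0.86 in CCl4 + 4MU, 1.204 in CCl4 + siLuc-LNP and 0.99 in CCl4 + siHAS2-LNP. This pair was chosen after the values were seen and has no test. The ratio of Slc10a1 to Abcb11, by contrast, overlapped between the sets, at -0.79 to 0.17 without CCl4 and -1.38 to 0.15 with CCl4.

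**Figure D4:**
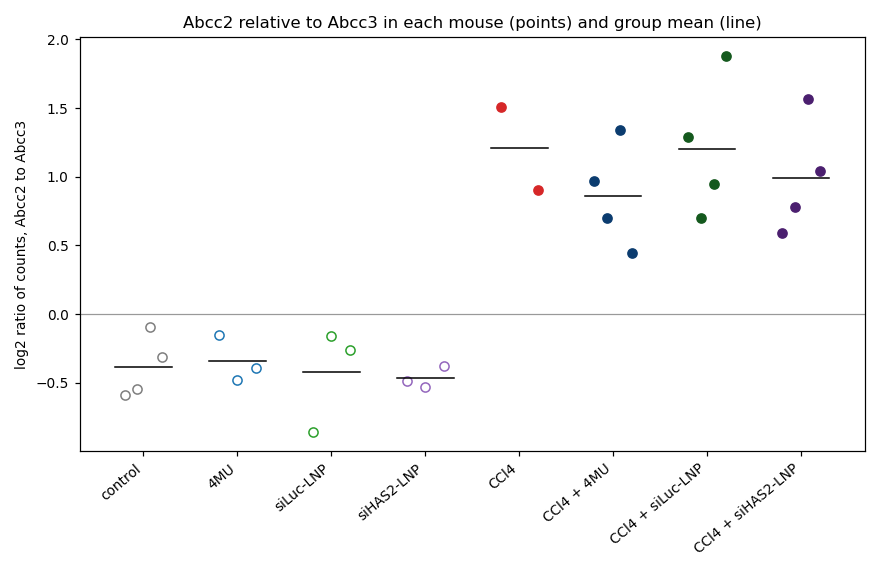
Log2 ratio of Abcc2 counts to Abcc3 counts in each mouse, with open points for mice without CCl4, filled points for mice with CCl4 and a line at each group mean. All 13 mice without CCl4 lie below 0 and all 14 CCl4 mice lie above it, at 0.44 to 1.88.

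Across the 27 libraries, Slc10a1 and Slco2b1 were the pair of members with the highest Pearson correlation of log2 CPM, 0.92, which was 0.89 within the 14 CCl4 mice and 0.67 within the 13 others. Abcc2 correlated negatively with Slco1a4 (-0.64), but within the 14 CCl4 mice this was 0.29 and within the 13 others -0.32. Abcc2 and Abcc3 had a correlation of -0.44 over all libraries, 0.23 in the CCl4 mice and 0.73 in the others. These points share libraries and the difference between mice with and without CCl4.

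By the same measure, the genes most like each member were named among protein-coding genes outside the members. Slc10a1 was most like Sirt2 (0.93), Aldh2 (0.93) and Hgfac (0.92), with correlations of 0.92 to 0.96 within the CCl4 mice and 0.43 to 0.52 within the others. Slco1b2 was most like Sult2a2 (0.96), Sult2a1 (0.96) and Cdadc1 (0.96). The genes closest to Slco2b1 were Scnn1a (0.95), Hpd (0.95) and Hectd3 (0.94), those closest to Slco1a4 were Cyb5a (0.89), Cyp2a22 (0.88) and Ech1 (0.87), and those closest to Slco1a1 were Wrnip1 (0.81), Elovl3 (0.79) and Ccdc162 (0.79). For Abcb11 they were Ptgds (0.86), Cat (0.85) and Otc (0.85), and for Abcb4 they were Pex19 (0.88), Slc25a22 (0.80) and Ube2e2 (0.79). Abcc2 was most like Cps1, the first enzyme of the urea cycle (0.90), Sptan1 (0.89) and Nrip2 (0.87), whereas Abcc3 was most like the cytochromes Cyp2c54 (0.89) and Cyp2c37 (0.89) and Mocs1 (0.88). For Abcc4 the values were lower, with Tmem185a (0.68) and Kyat3 (0.66). For Abcc2 the correlations within the 14 CCl4 mice were lower, at 0.61 for Cps1, 0.42 for Sptan1 and 0.16 for Nrip2, with 0.89, 0.70 and 0.73 within the 13 others. For Slco1a1 they were 0.38 to 0.45 within the CCl4 mice and 0.63 to 0.74 within the others. Ptgds, Cat and Otc had correlations with Abcb11 of 0.86, 0.89 and 0.88 within the CCl4 mice. Within the 13 others these were 0.64, 0.31 and 0.16. By Spearman's correlation over all 27 libraries, the same genes ranked 9, 76 and 193 in likeness to Abcb11.

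Among other carriers of the pathway, 4 of 8 tested uptake carriers of other families fell in CCl4 against control, where 16.1% of all genes fell and 18.0% rose, and the median of the 8 was -0.94. The cation carrier Slc22a3 fell by 2.32 (SE 0.42), and the nucleoside carrier Slc29a1 fell by 1.35 (SE 0.26). Of 9 other efflux pumps, 3 rose and 3 fell, and Abcb1b, a multidrug pump, rose by 3.24 (SE 0.53, adjusted p = 4.65e-05). Of 7 genes of canalicular lipid transport, 2 fell, the sterol half-transporters Abcg5 by 1.28 and Abcg8 by 1.89 on the log2 scale. Of 10 scaffold and trafficking genes, 2 rose, among them Ezr, a linker of membrane proteins to actin, by 1.92. The 2 tested genes among the remaining organic anion transporting polypeptides had a median of 0.22, and neither passed the threshold.

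Of 12 nuclear receptors and factors known to act on transporter genes, 5 fell and 1 rose in CCl4 against control, with a median of -0.49. Of all genes, 16.1% fell and 18.0% rose there. Nr1i3, the constitutive androstane receptor, fell by 2.31 (SE 0.43, adjusted p = 2.17e-04) and Nfe2l2, the regulator of the antioxidant response, rose by 0.74 (SE 0.16, adjusted p = 8.56e-04). In CCl4 + 4MU against CCl4, 5 of these 12 rose, with 8.28% of all genes, and in CCl4 + siHAS2-LNP against CCl4, 4 rose, with 7.11% of all genes. Nr1i3 was higher by 1.86 (SE 0.42) and 1.504 (SE 0.41) in these comparisons, and Ahr by 0.82 (SE 0.20) and 1.32 (SE 0.20). Ahr was also higher in CCl4 + siLuc-LNP than in CCl4, by 1.13 (SE 0.20, adjusted p = 0.0131 by edgeR), where 0.248% of all genes passed. In CCl4 against control Ahr fell by 0.75 (SE 0.20). Of 9 genes of bile acid synthesis and conjugation, 6 fell in CCl4 against control, where 16.1% of all genes fell. Against CCl4, 4 of the 9 rose in CCl4 + 4MU (8.28% of all genes) and 3 in CCl4 + siHAS2-LNP (7.11%). Cyp7a1, the rate-limiting enzyme of synthesis, fell by 3.18 (SE 0.65) in CCl4 mice and was higher by 2.79 (SE 0.63) in CCl4 + 4MU and by 2.51 (SE 0.62) in CCl4 + siHAS2-LNP.

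Markers of hepatocytes and their zones also differed between these groups. The summed level of 7 hepatocyte markers was 169819 to 204705 CPM in control, 77017 and 135527 CPM in the CCl4 mice and 155543 to 187429 CPM in CCl4 + 4MU, and 4 of the 7 fell in CCl4 against control. The 8 pericentral markers summed to 6377 to 9915 CPM in control, 455 and 795 CPM in CCl4 and 1893 to 2777 CPM in CCl4 + 4MU, and 7 of the 8 fell. The 7 periportal markers summed to 2436 to 4050 CPM in control, 1449 and 2273 CPM in CCl4 and 3602 to 5215 CPM in CCl4 + 4MU, and 2 of the 7 fell. Stellate cell and myofibroblast markers, 8 in all, summed to 224 to 322 CPM in control and 673 and 895 CPM in CCl4, and 6 of 6 proliferation markers rose. Cholangiocyte markers, 7 in all, summed to 53.6 to 119 CPM in control and 264 and 349 CPM in CCl4, and 2 of the 7 rose. Of the other lists, 2 of 8 Kupffer cell markers rose and 1 fell, 2 of 7 sinusoidal endothelial markers rose and 1 fell, and 2 of 7 lymphocyte markers fell in CCl4 against control, where 18.0% of all genes rose and 16.1% fell. Of 4 tested neutrophil markers, 0 passed by edgeR, 0 by DESeq2 and 0 at an unadjusted p under 0.05. In CCl4 + siHAS2-LNP the hepatocyte markers summed to 115765 to 174760 CPM and the pericentral markers to 1560 to 2551 CPM. Of the 8 pericentral markers, 4 were higher than in CCl4 and 1 was lower, where 7.11% of all genes were higher. In CCl4 + siLuc-LNP the 2 lists summed to 109279 to 159355 and 480 to 1943 CPM. There, 0 of the 8 pericentral markers passed against CCl4 by edgeR, and 4 had an unadjusted p under 0.05, as had 2001 of all 14114 genes. Their median log2 fold change against CCl4 was 0.56 for siHAS2-LNP and 0.72 for siLuc-LNP. Between the 2 siRNA groups, 0 passed by edgeR (median -0.02), and 4 had an unadjusted p under 0.05, as had 2349 of all 14114 genes. The 8 Kupffer cell markers summed to 147 to 185 CPM in CCl4 + siHAS2-LNP, 196 to 292 CPM in CCl4 + siLuc-LNP and 334 and 351 CPM in CCl4. In CCl4 + siHAS2-LNP against CCl4, 5 of these 8 fell, where 7.33% of all genes fell. So did 3 of 8 stellate cell, 2 of 7 sinusoidal endothelial and 3 of 6 proliferation markers. In the same order, 0, 0, 0 and 6 fell in CCl4 + 4MU against CCl4. In CCl4 + siLuc-LNP against CCl4 the numbers were 1, 0, 0 and 0, where 0.248% of all genes passed in either direction. Lower in CCl4 + siHAS2-LNP than in CCl4 + siLuc-LNP were 0, 1, 0 and 0, where 1.09% of all genes passed. At an unadjusted p under 0.05 there were 6, 6, 4 and 4 between these 2 siRNA groups, with 2349 of all 14114 genes. No marker of these lists was at 0 in all mice of a group. The part of these shifts in the transporter values was not tested, and in whole liver fewer hepatocytes and less transporter mRNA per hepatocyte cannot be told apart.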

How the data were processed

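Liver poly(A) RNA of 27 mice was sequenced in paired-end mode. According to the submitters' processing notes and the methods, the authors used Trimmomatic 0.39 for trimming, HISAT2 for alignment (GRCm39, Ensembl 105) and featureCounts for read pairs per gene, leaving out multimapping reads. Which HISAT2 version and which strand setting were used is not given in the sources used here. The deposited values are raw counts, whole numbers for 55414 genes, neither normalised nor filtered, and all 27 columns were matched to samples by name.

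Symbols, positions and exon lengths came from GENCODE vM39 (GRCm39), in which 54749 identifiers had an entry. In R 4.3.3, genes with a mean count of 10 or more were fitted in edgeR 4.0.16 with TMM scaling, all 8 groups in 1 model without covariates, and tested by the quasi-likelihood F test with Benjamini-Hochberg adjustment over 14114 genes at 0.05. Standard errors are the absolute log2 fold change divided by the square root of F. CPM values use TMM-scaled totals, and correlations use log2 CPM with a prior count of 2. Alternatives were DESeq2 1.42.0, edgeR with the size factors of DESeq2, no filter on low counts, a replicate block, fits of the compared groups alone, fits without 1 mouse, lengths of the longest transcript and Spearman's correlation. The scripts were tested on simulated data. Python 3.11.15 with pandas 2.3.3 and matplotlib 3.10.9 made the summaries and figures.

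All members were named, with at most 3 genes of every other list, those past the threshold with the largest change, and the 3 protein-coding genes most like each member. Some genes that this rule names are not reported here. The members and lists were chosen with earlier results of these data known. Totals of 7044386 to 29425937 counts set the precision, which is lowest for Slco1a1 and Abcc4. Same-group libraries differed by more than counting noise (chi-square per degree of freedom of 15.9 to 458 over 34 pairs), so no library was a repeat of another.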

Additional observations from a re-analysis of the deposited data

Results flagged for a closer look

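The response of 2 members to CCl4 differed between the 4MU arm and the untreated arm by the test of the difference itself. Of all genes, 5.67% passed that test. For Slc10a1 the difference was 1.88 on the log2 scale (edgeR, adjusted p = 0.0115), and 2.01 without CCl4 mouse 2. In the untreated arm both CCl4 mice lay below all 4 control mice, and in the 4MU arm the 4 mice with CCl4 overlapped the 3 without. For Slco2b1 the difference was 0.96 (adjusted p = 0.0319). It did not pass with the replicate number as a block (edgeR, adjusted p = 0.0502). Nor did it pass without control mouse 1, 4MU mouse 2 or 3, or CCl4 + 4MU mouse 1 or 4 (adjusted p = 0.0537 to 0.0699). On the scaled totals, all mice with CCl4 lay below those without it in both arms. Those with CCl4 were at 56.2 and 61.8 CPM without treatment and at 114 to 118 CPM with 4MU. In the 4MU arm this separation depended on the scaling, and the CCl4 effect of that arm did not pass the threshold. No member had a mouse that stood apart from the rest of its group of 4 by Dixon's ratio, and groups of 2 and 3 were not examined in this way.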

How the results depend on the processing

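The numbers of members past the threshold were recomputed under each alternative. With any 1 mouse left out they ranged from 4 to 8 in CCl4 against control, 1 to 3 in the 4MU arm, 7 to 8 in the siLuc-LNP arm, 1 to 5 in the siHAS2-LNP arm, 8 to 10 over the 4 arms, 1 to 4 for CCl4 + 4MU against CCl4, 0 to 3 for CCl4 + siHAS2-LNP against CCl4, 0 to 3 for CCl4 + siLuc-LNP against CCl4, 0 to 1 for CCl4 + 4MU against CCl4 + siHAS2-LNP and 0 to 2 for the interaction of 4MU with CCl4. Leaving out 1 of the 2 CCl4 mice leaves a lone mouse that is assumed to vary like the other groups. Without the low-count filter the number was 5 in the 4MU arm, 1 in CCl4 + siHAS2-LNP against CCl4 + siLuc-LNP and 1 for the interaction of siHAS2 with CCl4. In fits of only the compared groups it was 5 in the siLuc-LNP arm and 1 for CCl4 + siHAS2-LNP against CCl4. DESeq2 gave 1 for CCl4 + siLuc-LNP against CCl4. The cause of these shifts was not tested.

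Same-numbered mice were not paired, as the correlations of their deviations ranged from -0.32 to 0.21. With the replicate number as a block, the number past the threshold was 3 in the siHAS2-LNP arm, 0 for CCl4 + 4MU against CCl4 + siHAS2-LNP and 1 for the interaction of 4MU with CCl4, and within 1.5 times the value without it in the other comparisons. Direction reversed in 1 of 49 values of single members, Abcb4 in CCl4 against control, at 0.20 without CCl4 mouse 1 and 0.22 without control mouse 1, in a range of -0.24 to 0.22. In the alternatives that kept all mice, 212 single values kept their side of the threshold, 14 no longer passed and 16 newly passed. With the longest transcript in place of the exon union, the control level of Slc10a1 was 362 and that of Slco1b2 was 221 CPM per kilobase. The order of the genes below them changed in part. By this length Slco1a4 (38.9) stood above Slco2b1 (25.9), and its range overlapped that of Abcc3 (mean 46.0). Abcb4 was at 23.1 and Abcc2 at 22.7. The ranges of Slco1b2 and Abcb11 no longer overlapped.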
